A study of Drosophila melanogaster and Drosophila yakuba and Drosophila virilis with 31 samples.

Results

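The genes described here build or use the germ plasm, the specialized cytoplasm at the posterior pole of the Drosophila egg. The RNAs were measured in single late blastoderm embryos and single unfertilized eggs. Of the 6 genes osk, nos, vas, tud, gcl and vls, 4 (osk, nos, tud and vls) had a row of that name among the 5993 genes of the main expression table, which holds genes with an ortholog in each of the 4 species. vas and gcl had no row by name or by gene identifier and were not analysed here. A row named CG33678, which RefSeq lists as a former locus tag of vas, is described at the end and is not counted as a member. The 29 libraries analysed came from D. melanogaster (mel, strain Oregon-R), D. yakuba (yak, Tai18E2), D. pseudoobscura (pse, MV2-25) and D. virilis (vir, V46). Embryos had finished forming cells around the blastoderm nuclei and had not begun gastrulation, so they were staged by form and not by age. They comprised 3 female and 3 male embryos of mel, 3 and 3 of yak, 2 and 3 of pse and 3 and 2 of vir, against 2 unfertilized eggs of mel, 2 of yak, 1 of pse and 2 of vir. No embryo or egg was mutant or treated. Each library is 1 embryo or egg, and embryos were gathered from many mothers, and no label ties a library to a mother.

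Germ plasm is assembled during oogenesis and is inherited by the pole cells, which form at the posterior pole and become the germ line. The nurse cells supply osk RNA to the oocyte, where it is carried to the posterior pole and translated there, and Oskar protein then recruits the other components. Vasa, an RNA helicase, and Tudor, a scaffold protein that binds methylated arginine, are among the first of these, and Valois is a partner of Tudor and a part of the arginine methylation machinery. nos RNA is kept and translated at the posterior pole, while the much larger part spread through the egg is repressed and broken down. Nanos protein represses hunchback translation in the posterior of the early embryo and later acts in the pole cells.

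The stage labels were checked against marker genes before the members were examined. Of 14 zygotic blastoderm genes, 13 were higher in embryos than in eggs in each species, and their summed level was 690 to 1253 FPKM in embryos against 14.1 to 65.8 FPKM in eggs. All 5 maternal patterning genes fell in the mean of the 4 species, with sums of 20.4 to 263 FPKM in embryos and 399 to 462 FPKM in eggs. In yak 4 of the 5 were called lower. Tl ranged from 10.8 to 255 FPKM in embryos, against 90.6 to 148 FPKM in eggs. FPKM is sequenced fragments scaled by transcript length and by library size, rescaled by the authors to a common upper quartile of autosomal genes. Only 2 of 14 follicle cell and eggshell genes were in the table, with sums of 0.430 to 8.06 FPKM in embryos and at most 0.272 FPKM in eggs. Both genes were called higher in embryos in the mean of the 4 species, in mel and in vir, and 1 of the 2 in yak and in pse. The files hold no read counts, so depth is unknown and no counting interval can be given.

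osk, whose protein starts germ plasm assembly, was the most abundant member in eggs and nearly absent from mel and yak embryos. The gene lies on mel chromosome 3R, 4760852 to 4764117 in FlyBase release 5 coordinates. In mel embryos osk stood at 1.01, 1.23 and 1.49 FPKM in females and 1.04, 0.324 and 1.24 FPKM in males, against 114 and 426 FPKM in the 2 eggs. In yak embryos it stood at 0.472, 0.589 and 1.44 FPKM in females and 0.594, 0.360 and 0.737 FPKM in males, against 396 and 361 FPKM in eggs. No embryo of these species held more than 1.49 FPKM.

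In pse and vir more osk RNA was present in the embryos. In pse it measured 14.3 and 6.24 FPKM in females and 11.05, 7.56 and 8.41 FPKM in males, against 541 FPKM in the single egg. In vir it measured 8.13, 2.86 and 9.57 FPKM in females and 1.57 and 9.97 FPKM in males, against 102 and 125 FPKM in eggs. All 22 embryos lay below every egg of their species. Eggs were few, and the share of all genes that separate in this way was not counted, for osk or for the genes below. As a share of the mean egg level, embryos held 0.391% ± 0.147 (mel, SD, n = 6), 0.185% ± 0.102 (yak, n = 6), 1.76% ± 0.595 (pse, n = 5) and 5.67% ± 3.47 (vir, n = 5). The mel share rests on eggs far apart and was 0.925% without mel egg 3.

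**Figure D1:**
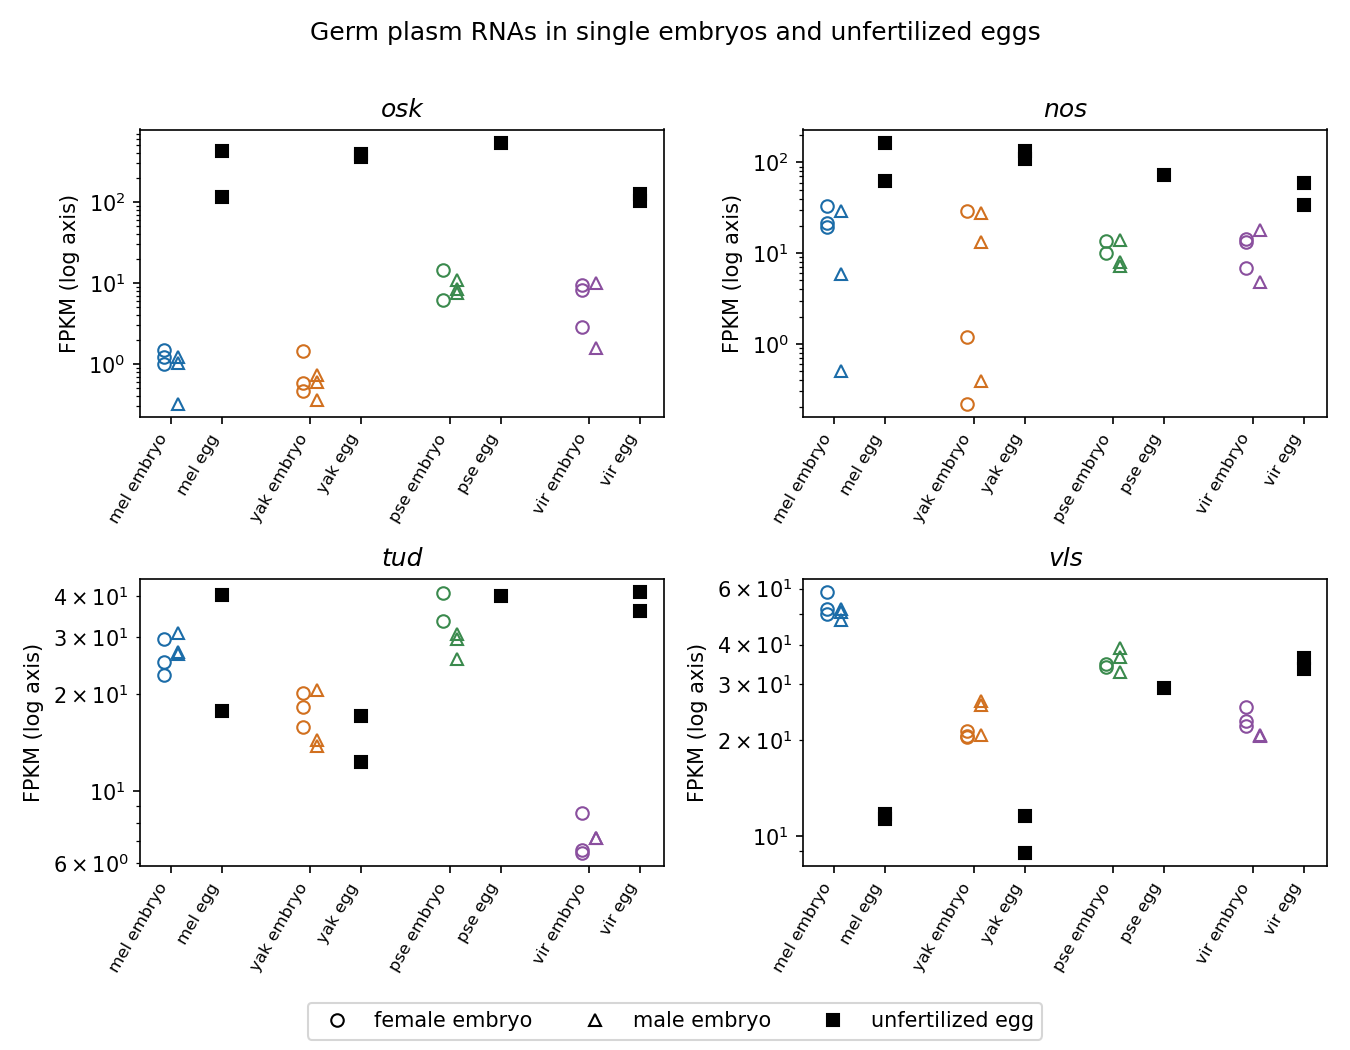
FPKM of osk, nos, tud and vls in each library (log axes), with embryos coloured by species to the left of the black squares for the eggs of the same species, circles for females and triangles for males. Every osk and nos point of an embryo lies below the eggs of its species, every tud point is below the eggs only in vir, and vls is above the eggs in mel, yak and pse and below them in vir.

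The fall of osk passed the test in all 4 species. The embryo minus egg difference in log2(FPKM + 1), from a limma fit over all genes with Benjamini-Hochberg adjustment, was -6.78 ± 0.46 for mel (SE, adjusted p = 8.37e-12), -7.83 ± 0.46 for yak (6.44e-13), -5.73 ± 0.63 in pse (3.30e-08) and -4.20 ± 0.48 in vir (5.39e-08). Over the 4 species it averaged -6.13 ± 0.26. A fall is common in this comparison, since 32.0% of the 5983 genes tested were called lower in mel embryos, with 33.0% for yak, 32.0% for pse, 27.2% for vir and 36.5% for the mean of the species. The genes called higher made up 44.2%, 38.6%, 35.4% and 44.4% in the same species order, and 51.5% in the mean. Of the 16 combinations of a member and a species, 8 were called lower and 2 higher.

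How far osk fell differed between species. The F test over the 4 species gave an adjusted p of 2.68e-04, as it did below 0.05 for 89.0% of all genes. The loss was smaller in vir than in mel by 2.58 ± 0.67 log2 units (adjusted p = 0.00181) and than in yak by 3.63 ± 0.67 (5.88e-05), and smaller in pse than in yak by 2.10 ± 0.78 (0.0285). The pse minus yak call was lost in 5 of the alternative settings, among them leaving out pse female 1, yak egg 1 or yak egg 2. The other pairs missed the threshold, with differences of 1.53 ± 0.79 for vir minus pse, 1.05 ± 0.78 for pse minus mel and -1.05 ± 0.66 for yak minus mel. Some were called in other settings, vir minus pse with a pseudocount of 10 or without vir male 2 or vir female 2, pse minus mel without mel egg 2, and yak minus mel without mel egg 3.

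The deposit of osk varied less clearly. Mean egg levels ran in the order pse (541 FPKM, 1 egg), yak (379 FPKM), mel (270 FPKM) and vir (113 FPKM), and no neighbours in this order were called different. Only vir was called lower, by 1.74 ± 0.57 log2 units against yak (adjusted p = 0.0123) and by 2.26 ± 0.70 against pse (0.00959). The 2 mel eggs differed by 3.74-fold, a gap wider than that of 99.0% of genes, and without mel egg 2 the vir minus mel difference was called as well, while without mel egg 3 pse minus mel and yak minus mel were. The vir minus yak call was lost without yak egg 1, without vir egg 1 or after the median normalization. In embryos the order was pse (9.52 FPKM), vir (6.42 FPKM), mel (1.06 FPKM) and yak (0.699 FPKM). Both pse and vir exceeded both mel and yak (adjusted p from 5.12e-07 to 2.17e-04), whereas vir minus pse and yak minus mel missed the threshold. The vir minus pse difference in embryos was called after the median or quantile normalization and without pse female 2, vir male 3, vir female 3, mel egg 2 or mel egg 3.

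nos, which encodes a translational repressor of posterior patterning and the germ line, fell as well but kept a larger share, and varied far more among embryos. The gene lies on 3R, 14982961 to 14985924. In mel embryos it stood at 21.3, 19.5 and 33.5 FPKM in females and 0.507, 5.91 and 29.4 FPKM in males, against 62.8 and 166 FPKM in eggs. In yak embryos it stood at 1.20, 0.219 and 29.4 FPKM in females and 0.389, 27.5 and 13.3 FPKM in males, against 110 and 135 FPKM in eggs. Thus 3 yak embryos and 1 mel embryo had at most 1.20 FPKM, while others of the same sex and species had over 13 FPKM.

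The pse and vir embryos were more alike in nos. In pse the level was 13.6 and 10.1 FPKM in females and 8.07, 13.9 and 7.14 FPKM in males, against 72.3 FPKM in the egg. In vir it was 13.4, 6.87 and 14.3 FPKM in females and 4.75 and 17.8 FPKM in males, against 33.6 and 58.7 FPKM in eggs. Again all 22 embryos lay below every egg of their species. The share of the mean egg level was 16.1% ± 11.3 (mel, SD, n = 6), 9.79% ± 11.2 (yak, n = 6), 14.6% ± 4.28 (pse, n = 5) and 24.7% ± 11.8 (vir, n = 5). The mel share was 29.2% without mel egg 3.

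The embryo minus egg difference of nos was -2.98 ± 1.06 in mel (SE, adjusted p = 0.0144) and -4.36 ± 1.06 in yak (8.21e-04), and these passed the test. It was -2.68 ± 1.43 in pse (adjusted p = 0.104) and -2.02 ± 1.09 in vir (0.103), which did not. The fit shares 1 estimate of the spread between all groups, and when each species was fitted alone the pse and vir differences were called too (adjusted p = 3.87e-04 and 0.00402). Without mel egg 3 the mel difference was -2.29 and no longer called (adjusted p = 0.159). Averaged over species the fall was -3.01 ± 0.59 (adjusted p = 5.74e-05).

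No difference of nos between species passed the test, in the loss, in eggs or in embryos. The F tests gave adjusted p of 0.507, 0.821 and 0.466 in that order, and the standard error of a pairwise difference in loss was 1.50 to 1.80 log2 units, so large differences could be missed. Mean egg levels ran from yak (122 FPKM) and mel (114 FPKM) to pse (72.3 FPKM) and vir (46.2 FPKM). Without yak female 3, which had the highest yak level, nos was called lower in yak embryos than in the other species. The vir minus yak difference in loss was called in that setting too.

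**Figure D2:**
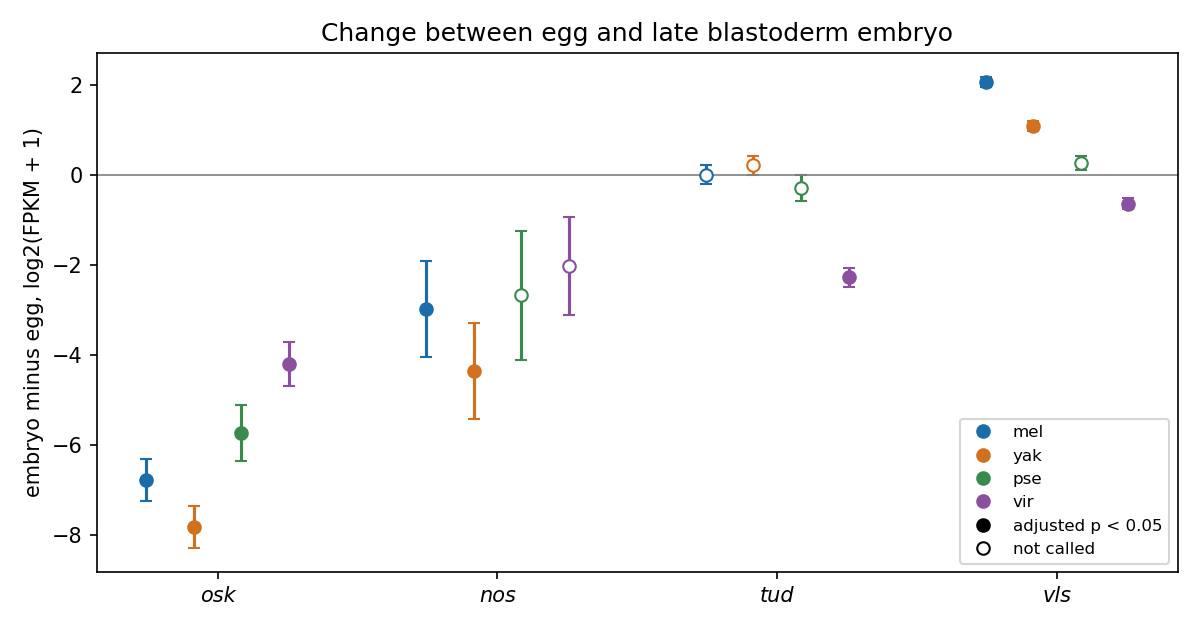
Embryo minus egg difference in log2(FPKM + 1) from the limma fit, for each member and species, with bars of 1 SE and filled points for an adjusted p under 0.05. osk is negative in all 4 species, from -4.20 in vir to -7.83 in yak, and vls runs from 2.07 in mel to -0.64 in vir; the direction of tud in mel, yak and pse and of vls in pse depends on the scaling of the libraries.

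The spread of nos among embryos stood apart from that of genes of like level. Its SD within groups of 1 species and sex, on the log2 scale, was 1.56 in mel and 2.38 in yak, larger than in 99.8% of genes within 1 log2 unit of its mean in either species. In vir it was 0.82 (larger than in 98.5%) and in pse 0.41 (93.7%). For osk the same SD reached 1.07 in vir, larger than in 98.2% of genes of like level. For tud and vls it was 0.08 to 0.24, which 17.4% to 56.6% of genes of like level fell below.

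Of other RNAs of the pole cells, pgc and zpg varied with nos in the same embryos. The rest of the germ plasm and pole cell genes listed below are not described in this respect. pgc, which encodes a repressor of transcription in pole cells, measured 31.6, 22.7 and 57.9 FPKM in mel females and 1.40, 6.41 and 35.4 FPKM in mel males. In yak it measured 4.33, 1.49 and 22.2 FPKM in females and 3.58, 30.6 and 19.2 FPKM in males. The embryos low in nos were thus those low in pgc.

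Over the 22 embryos, taken as deviations from their group means, nos and pgc had a Pearson r of 0.954 and a Spearman rho of 0.901. Without the 2 embryos with the most extreme nos the r was 0.937. For zpg, the germ line gap junction protein, r was 0.753 and rho 0.753, and r without those 2 embryos was 0.782. For osk r was 0.354 and rho 0.460. pgc, zpg and osk were chosen after their values had been seen, and the r of pgc ranked 1 and that of zpg 28 among 4963 genes, so these are descriptions with no p. In the species taken alone, the r of nos with pgc was 0.987 over the 6 mel embryos, 0.979 over the 6 yak embryos, where the levels fell into a low and a high set, 0.670 over 5 pse embryos and 0.714 over 5 vir embryos. For zpg it was 0.893, 0.922, 0.838 and 0.783 in the same order.

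**Figure D3:**
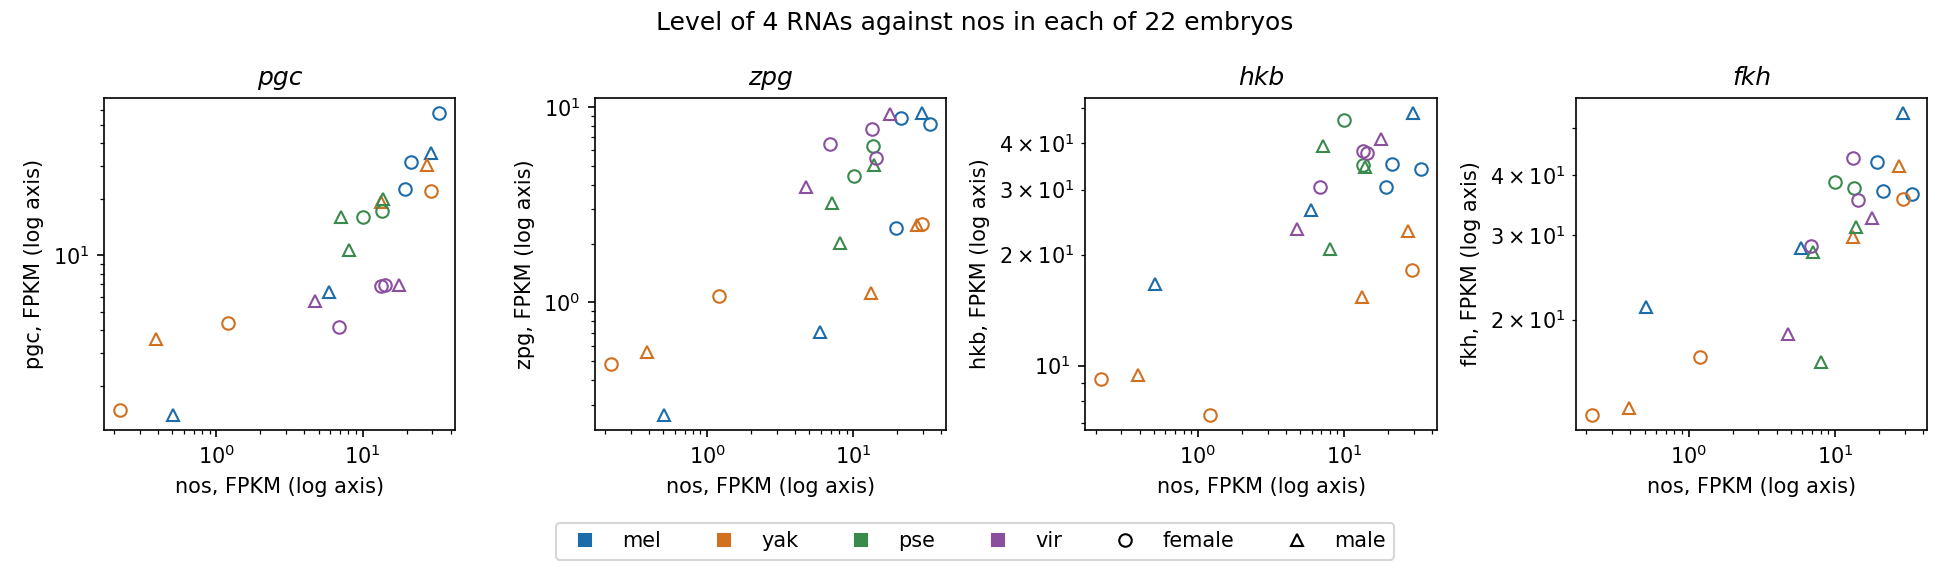
Level of pgc, zpg, hkb and fkh against that of nos in each of the 22 embryos (FPKM, log axes), coloured by species, with circles for females and triangles for males. The 4 embryos with at most 1.20 FPKM of nos, 3 of yak and 1 of mel, have pgc between 1.40 and 4.33 FPKM.

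Several zygotic genes also varied with nos. hkb and fkh, transcription factor genes active at the ends of the blastoderm embryo, had r of 0.864 and 0.921 with nos on the same deviations and ranked 4 and 2 of 4963 genes, and both were chosen after their values had been seen, so no p is given. In mel, yak, pse and vir alone the r of hkb was 0.922, 0.931, 0.202 and 0.980, so it hardly followed nos in pse, and that of fkh was 0.892, 0.992, 0.584 and 0.827. hkb measured 7.35, 9.18 and 9.44 FPKM in the 3 yak embryos low in nos, against 15.3, 18.1 and 23.1 FPKM in the other 3. fkh measured 16.7, 12.7 and 13.1 FPKM in the same 3, against 29.6, 35.7 and 41.8 FPKM. What part the amount of pole cell RNA or of tissue in a library has in the spread of nos was not tested, and fewer cells and less RNA per cell cannot be told apart in whole embryos.

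tud, whose protein is a large scaffold of the germ plasm granules, was near the egg level in 3 species in the main scaling and fell in vir. The gene lies on 2R, 17070936 to 17079903. In vir it measured 6.57, 6.45 and 8.56 FPKM in female embryos and 7.19 and 7.19 FPKM in males, against 36.1 and 41.3 FPKM in eggs. These vir groups did not overlap, and the embryo share was 18.6% ± 2.17 (SD, n = 5).

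In the other species embryos and eggs overlapped. In mel tud measured 22.8, 25.1 and 29.6 FPKM in females and 30.9, 26.5 and 26.9 FPKM in males, against 17.7 and 40.3 FPKM in eggs. In yak it measured 15.8, 18.2 and 20.0 FPKM in females and 13.8, 14.4 and 20.6 FPKM in males, against 17.04 and 12.3 FPKM in eggs. In pse it measured 40.8 and 33.4 FPKM in females and 30.7, 29.4 and 25.6 FPKM in males, against 40.1 FPKM in the egg. Shares of the egg mean were 92.9% ± 10.2 in mel, 117% ± 19.7 in yak and 79.9% ± 14.2 in pse, and the mel share was 152% without mel egg 3.

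The fall of tud in vir was -2.28 ± 0.22 (SE, adjusted p = 3.24e-09) and was called under every alternative tried. Differences in mel (0.00 ± 0.21), yak (0.21 ± 0.21) and pse (-0.30 ± 0.28) were not called, and their sign turned with the scaling, from -0.76 to 0.36 in mel, -0.49 to 0.78 in yak and -1.07 to 0.29 in pse over the 6 normalizations. Without normalization or after the 95th percentile tud was called lower in mel and pse, and after the median or quantile normalization it was called higher in yak. The mel value also turned with the egg used, at -0.57 without egg 2 and 0.57 without egg 3, both called. The change in vir differed from that in each other species, by -2.28 ± 0.30 from mel (adjusted p = 9.44e-07), -2.49 ± 0.30 from yak (2.68e-07) and -1.98 ± 0.36 from pse (5.72e-05).

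The order of tud differed between the stages. In eggs pse (40.1 FPKM, 1 egg), vir (38.7 FPKM) and mel (29.002 FPKM) were not called different, and yak (14.7 FPKM) was called lower than all 3 (adjusted p from 1.11e-04 to 0.0158). The yak minus mel call in eggs was lost without mel egg 3 or without yak egg 2, and without mel egg 3 both pse and vir were called higher than mel. vir minus mel was also called in eggs after the median, TMM or quantile normalization. In embryos pse (32.0 FPKM) and mel (27.0 FPKM) were not called different, and both yak (17.1 FPKM) and vir (7.19 FPKM) were lower than these. The pse minus mel difference in embryos was called after the median normalization and without mel egg 2 or mel egg 3. vir embryos were also below yak embryos, by 1.14 ± 0.16 log2 units (adjusted p = 9.01e-07).

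vls, the gene of the Tudor partner Valois, had the reverse pattern of osk in mel, with a low egg level and a higher embryo level. The gene lies on 2L, 20064260 to 20065675. In mel it measured 49.8, 51.8 and 58.6 FPKM in females and 47.7, 50.8 and 51.9 FPKM in males, against 11.3 and 11.8 FPKM in eggs. In yak it measured 20.6, 21.3 and 20.7 FPKM in females and 25.9, 26.6 and 20.8 FPKM in males, against 8.84 and 11.5 FPKM in eggs. Every mel and yak embryo was above both eggs of its species.

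In pse and vir the stages were closer. In pse vls measured 34.8 and 33.9 FPKM in females and 32.7, 39.2 and 36.6 FPKM in males, against 29.2 FPKM in the egg. In vir it measured 25.4, 23.0 and 22.2 FPKM in females and 20.7 and 20.8 FPKM in males, against 33.6 and 36.2 FPKM in eggs. The embryo level was thus 449% ± 32.2 of the egg mean (mel, SD, n = 6), 222% ± 27.7 (yak, n = 6), 121% ± 8.61 (pse, n = 5) and 64.2% ± 5.52 (vir, n = 5).

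vls rose in mel by 2.07 ± 0.11 (SE, adjusted p = 1.09e-13) and in yak by 1.08 ± 0.11 (8.48e-09), and fell in vir by 0.64 ± 0.11 on the log2 scale (3.31e-05). These directions and calls held under all 6 normalizations, but the sizes did not. The change ran from 1.33 to 2.43 in mel, 0.40 to 1.63 in yak and -1.17 to -0.56 in vir. In pse the difference of 0.26 ± 0.15 was not called (adjusted p = 0.135), and it ran from -0.51 to 0.84 with the normalization, called at both ends. All 6 differences in change between species passed the test, so that the order mel, yak, pse, vir had no tied neighbours (yak minus mel -0.99 ± 0.16, pse minus yak -0.82 ± 0.19, vir minus pse -0.89 ± 0.19). The authors' class of origin gave vls as maternal in mel and vir, as maternal at low confidence in pse and as maternal and zygotic at low confidence in yak.

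vls had its highest mean level in vir among eggs and in mel among embryos. In eggs vir (34.9 FPKM) and pse (29.2 FPKM, 1 egg) were not called different. Both exceeded mel (11.5 FPKM) and yak (10.2 FPKM) by 1.27 to 1.69 log2 units (adjusted p from 3.60e-10 to 1.87e-06), and mel and yak were not called different. vir minus pse was called in eggs after the median, TMM or quantile normalization. In embryos mel (51.8 FPKM) exceeded pse (35.4 FPKM), and pse exceeded yak (22.6 FPKM) and vir (22.4 FPKM), which did not differ beyond their spread. The exons of vls overlap those of lok, the checkpoint kinase gene on the opposite strand, and the library kit is not stated to keep strand. lok fell in all 4 species, with changes of -0.93 (mel), -1.17 (yak), -1.70 (pse) and -1.24 (vir), so it ran against vls in mel and yak and with it in vir, and its share in the vls values was not tested. CG11779, which overlaps nos on the opposite strand, had 7.15 to 7.92 FPKM in mel embryos and 16.2 to 33.5 FPKM in mel eggs. It changed by -1.53 in mel, -2.18 in yak and -2.30 in pse, but rose by 0.46 in vir. In vir it had 10.6 to 14.6 FPKM in embryos and 7.09 to 10.5 FPKM in eggs. Its share in the nos values was not tested. Exons of Nsun5 also overlap nos, and those of lncRNA:osk and asRNA:CR44020 overlap osk, and none of these had a row.

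A large share of all genes passed the pairwise tests between species, so a call for a member is not unusual here. For the change, 47.0% of genes were called for yak minus mel, 57.1% for pse minus mel, 65.9% for vir minus mel, 51.5% for pse minus yak, 64.6% for vir minus yak and 60.7% for vir minus pse, and members were called in 12 of 24 combinations. For eggs the shares were 30.5%, 39.3%, 53.2%, 35.8%, 55.3% and 49.9% in the same order of pairs, and 72.3% by the F test, and members were called in 9 of 24 combinations. For embryos they were 67.2%, 77.8%, 80.5%, 74.4%, 79.6% and 77.1%, and 97.8% by the F test, and members were called in 14 of 24 combinations. Gene models and mapping differ between species, so a level set across species also carries the annotation used.

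The sexes were compared within each species. None of the 16 female minus male differences was called by limma, none had an unadjusted p under 0.05, and they ran from -0.93 (nos in yak) to 1.88 (nos in mel, SE 1.06). Of all genes, 3.58% were called by sex in mel, with 3.01% for yak, 5.93% for pse and 2.96% for vir.

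The members were set beside 3 lists of genes of the same pathways. Of 17 genes measured for the localization and translation of osk RNA, 11 fell and 5 rose in the mean of the 4 species. Of all genes, 36.5% were called lower and 51.5% higher in this mean. The median change was -2.46 against 0.25 over all genes. The largest falls were in aret, which encodes the translational repressor Bruno (-6.96 ± 0.17), exu, which acts in RNA localization (-4.28 ± 0.26), and orb, which encodes a regulator of osk translation (-3.90 ± 0.12). The largest rises were in eIF4AIII (1.81 ± 0.06) and mago (1.16 ± 0.10), of the exon junction complex, and Hrb27C (1.17 ± 0.06), which encodes an RNA-binding protein. These 6 kept their direction under all 6 normalizations.

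orb was largely kept in vir embryos, with a change of -0.50 there and of -4.99 in mel, -5.28 in yak and -4.83 in pse. The vir change differed from that in mel by 4.49 ± 0.32 (adjusted p = 7.28e-11), in yak by 4.78 ± 0.32 (2.47e-11) and in pse by 4.33 ± 0.38 (2.63e-09). exu changed by -2.57 in pse, 2.20 ± 0.78 less of a fall than in mel (adjusted p = 0.0199) and 3.33 ± 0.78 less than in yak (0.00102). It also fell less in vir than in yak, by 2.01 ± 0.67 (adjusted p = 0.0116). The differences vir minus pse (-1.33 ± 0.79) and vir minus mel (0.87 ± 0.67) were not called. These genes were singled out after their values had been seen.

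**Figure D4:**
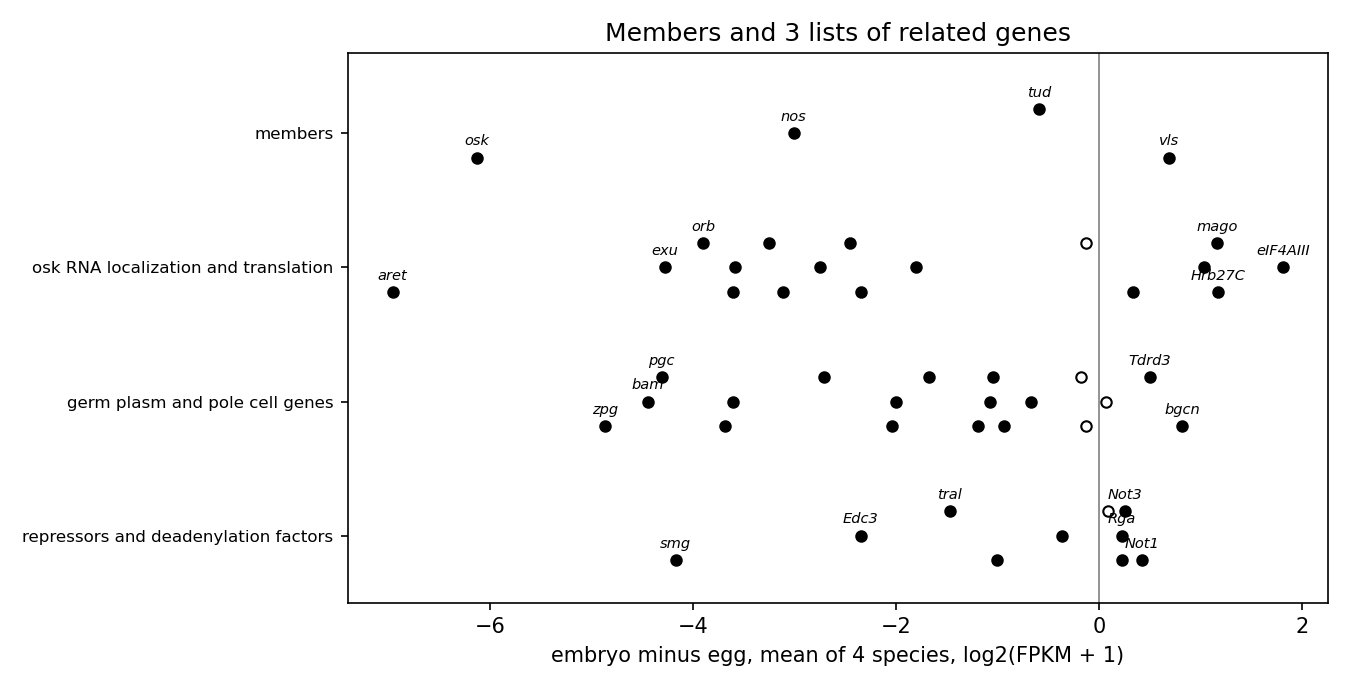
Mean embryo minus egg difference over the 4 species in log2(FPKM + 1) for the members and for the genes of 3 lists, with filled points for an adjusted p under 0.05. Falls reach -6.96 for aret, -4.87 for zpg and -4.17 for smg; the positive values of Tdrd3, stau, Not1, Not3, Rga and pcm turn negative under another scaling.

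Of 19 measured germ plasm and pole cell genes outside the members, 14 fell and 2 rose, with a median of -1.19. Of all genes, 36.5% fell and 51.5% rose. zpg (-4.87 ± 0.31), bam, a germ line differentiation factor (-4.45 ± 0.10), and pgc (-4.31 ± 0.43) fell most. bgcn, the partner of bam, rose in the mean (0.82 ± 0.09), but had -0.09 in yak, and its mean was 0.013 after the quantile normalization. Tdrd3, a tudor domain protein, had 0.50 ± 0.08, which became -0.18 under the 95th-percentile normalization.

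Of 10 measured genes for repression and removal of the poly(A) tail, 5 fell and 4 rose in the main scaling, with a median of -0.14. Of all genes, 36.5% fell and 51.5% rose, so these counts do not set the list apart. smg, whose protein binds nos RNA and brings the deadenylase to it, changed by -4.17 ± 0.10, and the decapping cofactors Edc3 and tral by -2.35 ± 0.14 and -1.47 ± 0.12. Not1 (0.43 ± 0.09), Not3 (0.25 ± 0.05) and Rga (0.23 ± 0.07), of the CCR4-NOT deadenylase, were called higher in the main scaling and became -0.28, -0.45 and -0.48 under the 95th-percentile one. The remaining rise, in pcm (0.22), became -0.45 there, so all 4 rises turned. The lists were drawn up with earlier results of these data known, so their counts are descriptions.

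Across the 12 group means, the genes most like a member in pattern were CG10960 (Pearson r = 0.991) and Lsd-2, a lipid droplet protein (0.988), for osk, and zpg (0.972) and CG7492 (0.961) for nos. For tud they were FBgn0028664 (0.926) and mTerf3 (0.909), and for vls Cortactin (0.891) and CG8965 (0.881), out of 4776 genes. Between members the r was 0.914 for osk and nos, 0.315 for osk and tud, 0.422 for tud and vls and -0.498 for osk and vls. These points share libraries and scaling.

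The row CG33678, at 2L 15061655 to 15074311, followed osk in direction. In BDGP6 the exons of vas overlap those of solo on the same strand, so that the reads of this row cannot be assigned to vas alone. It averaged 4.29 FPKM in embryos against 94.5 FPKM in eggs in mel, 4.54 against 31.4 FPKM in yak, 4.92 against 267 FPKM in pse and 2.42 against 22.8 FPKM in vir, and all 22 embryos lay below every egg of their species. The changes were -4.02 ± 0.35, -2.62 ± 0.35, -5.48 ± 0.48 and -2.82 ± 0.36 in the order mel, yak, pse and vir, all called. The pse egg stood above the mel eggs by 1.70 ± 0.53 log2 units (adjusted p = 0.0132), and above those of yak and vir as well (7.43e-05 and 6.88e-06).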

How the data were processed

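Per the study's methods, messenger RNA of single embryos and eggs was sequenced with TruSeq kits, trimmed reads were mapped to transcripts with Bowtie2, and transcript levels from eXpress were summed per gene. The authors deposited log10(normalized FPKM + 1) in 6 tables that differ in normalization (75th percentile of autosomal genes, none, median, 95th percentile, TMM and quantile), and tables of class of origin. The 75th-percentile table was the main one. Deposited group means were not used.

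Values were turned back to FPKM and tested as log2(FPKM + 1) with limma 3.58.1 in R 4.3.3 (empirical Bayes with a trend), in 1 fit of 12 groups and 29 of 31 libraries. The third pse female and first vir male were left out, as in the study. Genes needed a mean above 1 FPKM in at least 1 group (5983 of 5993 genes, all 4 members among them). The pseudocount of 1 shrinks the change of low genes. Embryo change is the mean of the female and male groups minus eggs. Tests were two-sided with Benjamini-Hochberg adjustment over all genes and a threshold of 0.05. The single pse egg was assumed to vary like the other groups. The fit was tested on simulated data.

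The scaling sets the zero of a change: the median change of all genes over the 4 species was 0.25 in the main table and -0.30 after the 95th-percentile normalization, a shift of -0.55. Genes called higher made up 58.5% of calls in the mean of the species in the main table and 40.9% after the 95th-percentile normalization.

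The named genes were all members present, from each list up to 3 genes called lower and up to 3 called higher with the largest mean change, and for each member the 2 genes with the most similar group means among those above 10 FPKM in a group. Members and lists were chosen with earlier results of these data known. mel positions are those of the files. BDGP6 served only for exon overlaps, and RefSeq only for names. No sequence is shown. The alternatives were the other normalizations, pseudocounts of 0.1 and 10, other filters, no trend, a replicate block, fits per species, the 2 removed libraries and leaving out each library.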

Additional observations from a re-analysis of the deposited data

Results flagged for a closer look

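The change between egg and embryo differed between species for 3 members, by a test of the difference itself in the limma fit. In each pair below the value is the change of the first species minus that of the second, in log2(FPKM + 1). For osk it was 2.58 for vir minus mel, 2.10 for pse minus yak and 3.63 for vir minus yak, all in the direction of a smaller loss. For tud it was -2.28 for vir minus mel, -2.49 for vir minus yak and -1.98 for vir minus pse. For vls it was -0.99 for yak minus mel, -1.81 for pse minus mel, -2.71 for vir minus mel, -0.82 for pse minus yak, -1.72 for vir minus yak and -0.89 for vir minus pse. Differences in change were called for 47.0% to 65.9% of all genes, depending on the pair. Groups held at most 3 libraries, too few to test for a single library standing apart.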

How the results depend on the processing

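The mean change of osk, nos and tud kept its direction and its call under every alternative, at -5.90 to -6.37 for osk, -2.84 to -3.19 for nos and -0.45 to -0.73 for tud when 1 library was left out. The tud mean came mostly from vir (-2.28), as the changes in mel (0.00), yak (0.21) and pse (-0.30) were not called in the main scaling. The mean change of vls was 0.65 to 0.74 on leaving out 1 library, but was not called without normalization (0.12) or after the 95th-percentile normalization (0.012). In both of these, 13 combinations of member and species were lower in embryos, and after the median or the quantile normalization 4 were higher. Calls over all genes moved as well. In the mean of the species, 2186 genes were called lower in the main scaling, 2975 without normalization and 3129 after the 95th-percentile normalization. Genes called higher numbered 3080 in the main scaling, 3468 after the median and 2648 after the quantile normalization. The larger count of falls is thus not particular to the members. Leaving out 1 library gave 7 to 9 lower and 2 to 3 higher, 11 to 14 differences in change, 8 to 12 in eggs and 14 to 17 in embryos, and 0 by sex. Values that turned were tud in mel (-0.62 without normalization, -0.76 after the 95th percentile, -0.57 without mel egg 2 but 0.57 without mel egg 3) and vls in pse (-0.38 and -0.51 under the same 2 scalings). tud in yak ran from -0.49 to 0.78 and tud in pse from -1.07 to 0.29 over the 6 scalings, called higher in yak under 2 and lower in pse under 2. The cause was not tested. Whether replicate numbers pair the libraries was not settled. Of 10 same-numbered correlations of deviations, 5 were over 0.1 (range -0.17 to 0.47). Differently numbered ones ran from -0.47 to 0.25. In pse females and vir males, with 2 embryos each, the deviations are equal and opposite, so each correlation has a mirror value. The 0.47 and -0.47 are such a pair, so these ranges cannot decide the question. In mel and yak alone, same-numbered correlations ran from -0.17 to 0.23 and differently numbered ones from -0.26 to 0.25. With the replicate number as a block, the changes were -6.31 for osk, -3.29 for nos, -0.69 for tud and 0.73 for vls, with 8 lower, 2 higher, 12 differences in change, 6 in eggs and 11 in embryos. The calls not made with the block were osk in eggs (vir minus pse, vir minus yak), tud in eggs (yak minus mel), tud in embryos (yak minus mel, pse minus yak) and vls in embryos (pse minus mel). With the removed libraries all counts were the same as without them. pse has 1 egg, so leaving it out gave no pse change. Without depth, low values such as osk in mel and yak embryos cannot be given a counting error.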

Other observations

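Among the 5 vir embryos, female 2 and male 2 had the lowest levels of both osk (2.86 and 1.57 FPKM) and nos (6.87 and 4.75 FPKM), against 8.13 to 9.97 FPKM of osk and 13.4 to 17.8 FPKM of nos in the other 3. In the 2 mel eggs, egg 3 exceeded egg 2 by 3.74-fold in osk, 2.64-fold in nos, 2.28-fold in tud and 3.07-fold in CG33678. Egg 3 also exceeded egg 2 by 1.99-fold in pgc and 1.47-fold in zpg. vls (1.04-fold) was near the same level in both, and bcd, the anterior determinant, was lower in egg 3 (0.801-fold). The libraries removed by the study had 14.5 FPKM of osk, 6.19 FPKM of nos, 24.5 FPKM of tud and 36.5 FPKM of vls in pse, and 8.50, 8.49, 5.97 and 23.5 FPKM of the same genes in vir.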
